A study of Mus musculus with 6 samples.

Results

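The genes described here are 9 components and regulators of the complement system, C3, C4b, C1s1, C1ra, Serping1, Cfb, C5ar1, C3ar1 and Cd55, in single cells of mouse mitral valves. They were chosen by symbol, and each matched 1 of the 31053 genes of the count tables. Valves of K/B.g7 mice, labelled inflamed, and of B.g7 mice, labelled control, were taken at 3, 8 and 25 weeks of age, digested with collagenase 2 and DNase, freed of red cells by lysis and sorted for live single cells. K/B.g7 mice carry a transgenic T cell receptor together with the MHC class II molecule I-Ag7 and develop spontaneous autoantibodies, arthritis and valvular carditis, while B.g7 mice have I-Ag7 without that receptor and stay free of the disease. There was 1 droplet library (10x Genomics, 3′ end) for each genotype and age, which gave 3 K/B.g7 and 3 B.g7 libraries. The labels give neither the number nor the sex of the mice behind a library. At 3, 8 and 25 weeks the K/B.g7 libraries held 29612970, 45002210 and 69152541 UMIs, and the B.g7 libraries 15196750, 29876036 and 54850494 UMIs. After filtering and removal of predicted doublets, 48323 cells were left, of which 971 stayed in unnamed clusters. The others fell in 14 classes named from marker genes other than complement genes, so that the names were rebuilt here and are not the study's. All libraries held cells with Xist and cells with Y-linked transcripts, and at most 1.21% of a library's barcodes also occurred in another library. No library was left out.

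Complement is a cascade of plasma proteins that coats targets for uptake by phagocytes and releases inflammatory peptides. In the classical pathway, C1q bound to antibody activates the proteases C1r and C1s, which cleave C4 and C2, and the resulting convertase cleaves C3. In the alternative pathway, factor B joins deposited C3b to form an amplifying convertase. C1 inhibitor, the product of Serping1, inactivates C1r and C1s, and CD55 (decay-accelerating factor) takes the convertases apart on the surface of host cells. The receptors C3aR and C5aR1 sense the released peptides C3a and C5a, mainly on myeloid cells. The liver makes most plasma complement, and fibroblasts, mesothelial cells and macrophages are known as local sources.

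Several of these genes lie close to each other in the mouse genome (GRCm38). C1ra (chr6:124512405-124523443, + strand) and C1s1 (chr6:124530345-124542359, − strand) are 6901 bases apart on chromosome 6. C4b (chr17:34728380-34743882, − strand) and Cfb (chr17:34856374-34862518, − strand) are 112491 bases apart on chromosome 17, where Cfb is 85 bases from C2, and C3 lies further along the same chromosome (chr17:57203970-57228136, − strand). Serping1 (chr2:84765387-84775444), Cd55 (chr1:130439027-130462744), C3ar1 (chr6:122847138-122856161) and C5ar1 (chr7:16246743-16259540) are all on the − strand. C1ra, C1s1, C4b and Cd55 have close relatives (C1rb, C1s2, C4a and Cd55b). How reads that fit both copies were counted is not given in the sources used here, so the values of these 4 genes may include or lack reads of the other copy.

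C3, C1s1 and C1ra are shown by their promoters because they rose together between 3 and 8 weeks, as described further on. C4b and Cfb rose in the same test, and their promoters, like that of Serping1, were not used here. Each sequence runs from 250 bases before to 50 bases after the RefSeq start on GRCm38.p6, 5′ to 3′ on the gene's own strand. Capitals mark matches to the C/EBP-type motif TTGCNNAA, searched on both strands.
C3, chr17:57228087-57228386 (− strand): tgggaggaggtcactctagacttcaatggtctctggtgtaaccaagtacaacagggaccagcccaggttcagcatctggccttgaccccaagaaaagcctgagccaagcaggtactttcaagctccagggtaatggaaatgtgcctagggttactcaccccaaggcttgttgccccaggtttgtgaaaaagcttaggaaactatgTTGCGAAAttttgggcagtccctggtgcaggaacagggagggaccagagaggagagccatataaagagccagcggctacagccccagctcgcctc
C1s1, chr6:124542310-124542609 (− strand): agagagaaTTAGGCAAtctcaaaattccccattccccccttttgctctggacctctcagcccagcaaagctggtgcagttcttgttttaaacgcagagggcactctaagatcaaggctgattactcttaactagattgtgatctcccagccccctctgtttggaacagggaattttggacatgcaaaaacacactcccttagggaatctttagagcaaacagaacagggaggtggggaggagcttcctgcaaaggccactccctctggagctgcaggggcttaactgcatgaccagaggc
C1ra, chr6:124512371-124512670 (+ strand): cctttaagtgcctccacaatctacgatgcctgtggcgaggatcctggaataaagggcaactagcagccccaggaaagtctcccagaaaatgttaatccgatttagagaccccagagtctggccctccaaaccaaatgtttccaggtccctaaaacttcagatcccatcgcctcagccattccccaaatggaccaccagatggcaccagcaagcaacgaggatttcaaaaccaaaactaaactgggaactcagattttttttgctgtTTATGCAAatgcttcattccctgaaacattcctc
The match in C3 (TTGCGAAA) began 45 bases before the start, and that in C1ra (TTATGCAA) lay just after the RefSeq start of C1ra. The gene position given above has C1ra begin earlier, at chr6:124512405, so by that position the match lies further inside the gene. The match in C1s1 (TTAGGCAA) was in the window of 1 of 2 listed starts, 242 bases before it, and the window of the other start held none. Promoters were listed for 6 of the 9 genes, and those of C5ar1, C3ar1 and Cd55 held no match to this motif. Across 32817 listed mouse promoters of the same length, 10.8% held it. No match to an NF-kB-type motif (0.411% of all promoters) or to an interferon-response (IRF-type) motif (3.43%) was found in the 6 genes. A STAT-type match, TTCNNNGAA (8.29% of all promoters), was in C1ra, and an AP-1-type match, TGANTCA (7.81%), in C3ar1. These are matches of letters and say nothing about binding.

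The 9 genes fell into distinct patterns across cell classes. C3, C1s1, C1ra, Serping1 and Cfb had their highest mean level in mesothelial-like cells, the cells of a serosal lining, and C4b in glial-like cells. C5ar1 and C3ar1 were nearly confined to macrophage-like cells among the 10 classes compared, and Cd55 was highest in B-like cells. Monocyte or neutrophil-like cells, too few to be compared, held up to 40.3% of a library's C5ar1 UMIs. Levels are in CPM, the gene's UMIs scaled by all UMIs of the class in a library, and were compared between classes with edgeR's quasi-likelihood test over 56 class sums of at least 20 cells, with Benjamini-Hochberg adjustment over 10644 genes. Classes of cells differ in a large share of all genes, and 44.6% of genes differed between fibroblast-like and mesothelial-like cells, so a difference between classes does not set a complement gene apart.

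C3, the central protein on which all pathways converge, had 1353, 7176 and 4549 CPM in mesothelial-like cells of K/B.g7 valves at 3, 8 and 25 weeks, against 3169 and 4099 CPM in B.g7 valves at 8 and 25 weeks. The 3-week B.g7 library had 3365 CPM in 17 such cells and was left out of tests for their small number. In interstitial fibroblast-like cells, which made up 65.0% to 83.6% of the cells of a library, C3 had 95.1, 1226 and 275 CPM in K/B.g7 valves, against 92.5, 379 and 398 CPM in B.g7 valves. The mesothelial-like level was above the fibroblast-like level in each of these libraries, and averaged 4069 ± 2126 CPM (SD, n = 5 libraries), against 411 ± 421 CPM (n = 6), a log2 difference of 3.21 ± 0.36 (SE) with an edgeR adjusted p of 5.64e-11. Fibroblast-like cells in turn exceeded macrophage-like cells, at 82.0 ± 79.8 CPM (n = 6), by 2.15 ± 0.38 and lymphatic endothelial-like cells, at 92.3 ± 149 CPM (n = 6), by 3.07 ± 0.37 on the log2 scale (edgeR adjusted p of 2.79e-06 and 4.50e-10). The lymphatic mean was carried by the 8-week K/B.g7 library, and these classes did not differ past the threshold in C3 (edgeR adjusted p = 0.0517). By number, fibroblast-like cells still held most of the C3 UMIs of K/B.g7 libraries, with 82.6%, 87.1% and 55.8% at 3, 8 and 25 weeks, against 73.7%, 35.4% and 38.2% in B.g7 libraries. Mesothelial-like cells held 63.5% and 61.5% of C3 UMIs in B.g7 valves at 8 and 25 weeks. How many mesothelial cells a dissection takes along can set these shares.

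C4b, whose product forms part of the classical C3 convertase, had 508, 987 and 723 CPM in glial-like cells of K/B.g7 valves, against 638, 1328 and 1414 CPM in B.g7 valves. Its mean there was 933 ± 375 CPM (n = 6), above mesothelial-like cells at 398 ± 261 CPM (n = 5) by 1.45 ± 0.32 on the log2 scale (edgeR adjusted p = 0.000213). Between these classes 33.2% of all genes differed. Mesothelial-like cells exceeded fibroblast-like cells, at 142 ± 113 CPM (n = 6), by 1.21 ± 0.30 (edgeR adjusted p = 0.000712). The order for C4b was therefore glial-like, mesothelial-like and fibroblast-like, with each step past the threshold.

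The classical-pathway proteases C1s1 and C1ra had the same leading class. C1s1 averaged 326 ± 137 CPM in mesothelial-like cells (n = 5), above mural or smooth muscle-like cells at 120 ± 58.4 CPM (n = 6) by 1.28 ± 0.27 on the log2 scale (edgeR adjusted p = 0.000108; 41.1% of genes differed). Fibroblast-like cells came next at 92.6 ± 63.4 CPM, and mural and fibroblast-like cells did not differ past the threshold in C1s1 (edgeR adjusted p = 0.111). C1ra averaged 229 ± 62.3 CPM in mesothelial-like cells, above 84.0 ± 52.9 CPM in fibroblast-like cells by 1.39 ± 0.23 (edgeR adjusted p = 1.23e-06). Their inhibitor Serping1 averaged 1384 ± 289 CPM in mesothelial-like and 1099 ± 253 CPM in fibroblast-like cells, a log2 difference of 0.14 ± 0.30 that did not pass (edgeR adjusted p = 0.739). Fibroblast-like cells exceeded mural cells, at 314 ± 114 CPM, by 1.80 ± 0.29 (edgeR adjusted p = 1.04e-06).

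Cfb, the protease of the alternative convertase, averaged 33.3 ± 25.7 CPM in mesothelial-like cells (n = 5), above macrophage-like cells at 8.42 ± 9.73 CPM (n = 6) by 1.68 ± 0.53 on the log2 scale (edgeR adjusted p = 0.00677; 56.8% of genes differed). Without the 25-week B.g7 library, which held the highest mesothelial level (76.9 CPM), this difference was 0.83 and no longer passed. Cd55 averaged 333 ± 212 CPM in B-like cells (n = 5), above fibroblast-like cells at 170 ± 62.5 CPM (n = 6) by 1.10 ± 0.27 (edgeR adjusted p = 0.000696; 46.2% of genes differed). Fibroblast-like, endothelial-like (169 ± 50.1 CPM) and lymphatic endothelial-like cells (160 ± 35.7 CPM) did not differ in Cd55 between neighbours in this order (edgeR adjusted p of 0.466 and 0.819). Within B-like cells, Cd55 had 428 CPM in a cluster led by Cd79a, Iglc2 and Ly6d and 15.7 CPM in 22 cells led by immunoglobulin genes and Jchain.

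The peptide receptors behaved differently from the secreted components. C5ar1, the receptor for C5a, had 334, 144 and 95.2 CPM in macrophage-like cells of K/B.g7 valves, against 271, 129 and 145 CPM in B.g7 valves. C3ar1, the receptor for C3a, had 253, 113 and 109 CPM there, against 67.8, 118 and 126 CPM. The highest mean of any other class among those compared was 2.16 CPM for C3ar1 (endothelial-like) and 1.67 CPM for C5ar1 (B-like), and C5ar1 was at 0 in lymphatic endothelial-like, mural, mesothelial-like, glial-like and NK or innate lymphoid-like cells. The excess of C3ar1 in macrophage-like over endothelial-like cells, the next class, was 6.93 ± 0.45 on the log2 scale (edgeR adjusted p = 2.49e-16; 59.3% of genes differed), and that of C5ar1 over B-like cells 7.15 ± 0.74 (edgeR adjusted p = 8.10e-09; 26.6% of genes differed). Macrophage-like clusters differed between themselves. The cluster led by C1qa, Ccl4 and C1qb had 284 CPM of C3ar1 and 332 CPM of C5ar1, and the cluster led by Lyz2, Plac8 and Tyrobp had 9.02 CPM and 81.2 CPM. In 25 monocyte or neutrophil-like cells of the 25-week K/B.g7 library C5ar1 had 724 CPM (95% counting interval 468 to 1069) and C3ar1 no UMI.

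**Figure D1:**
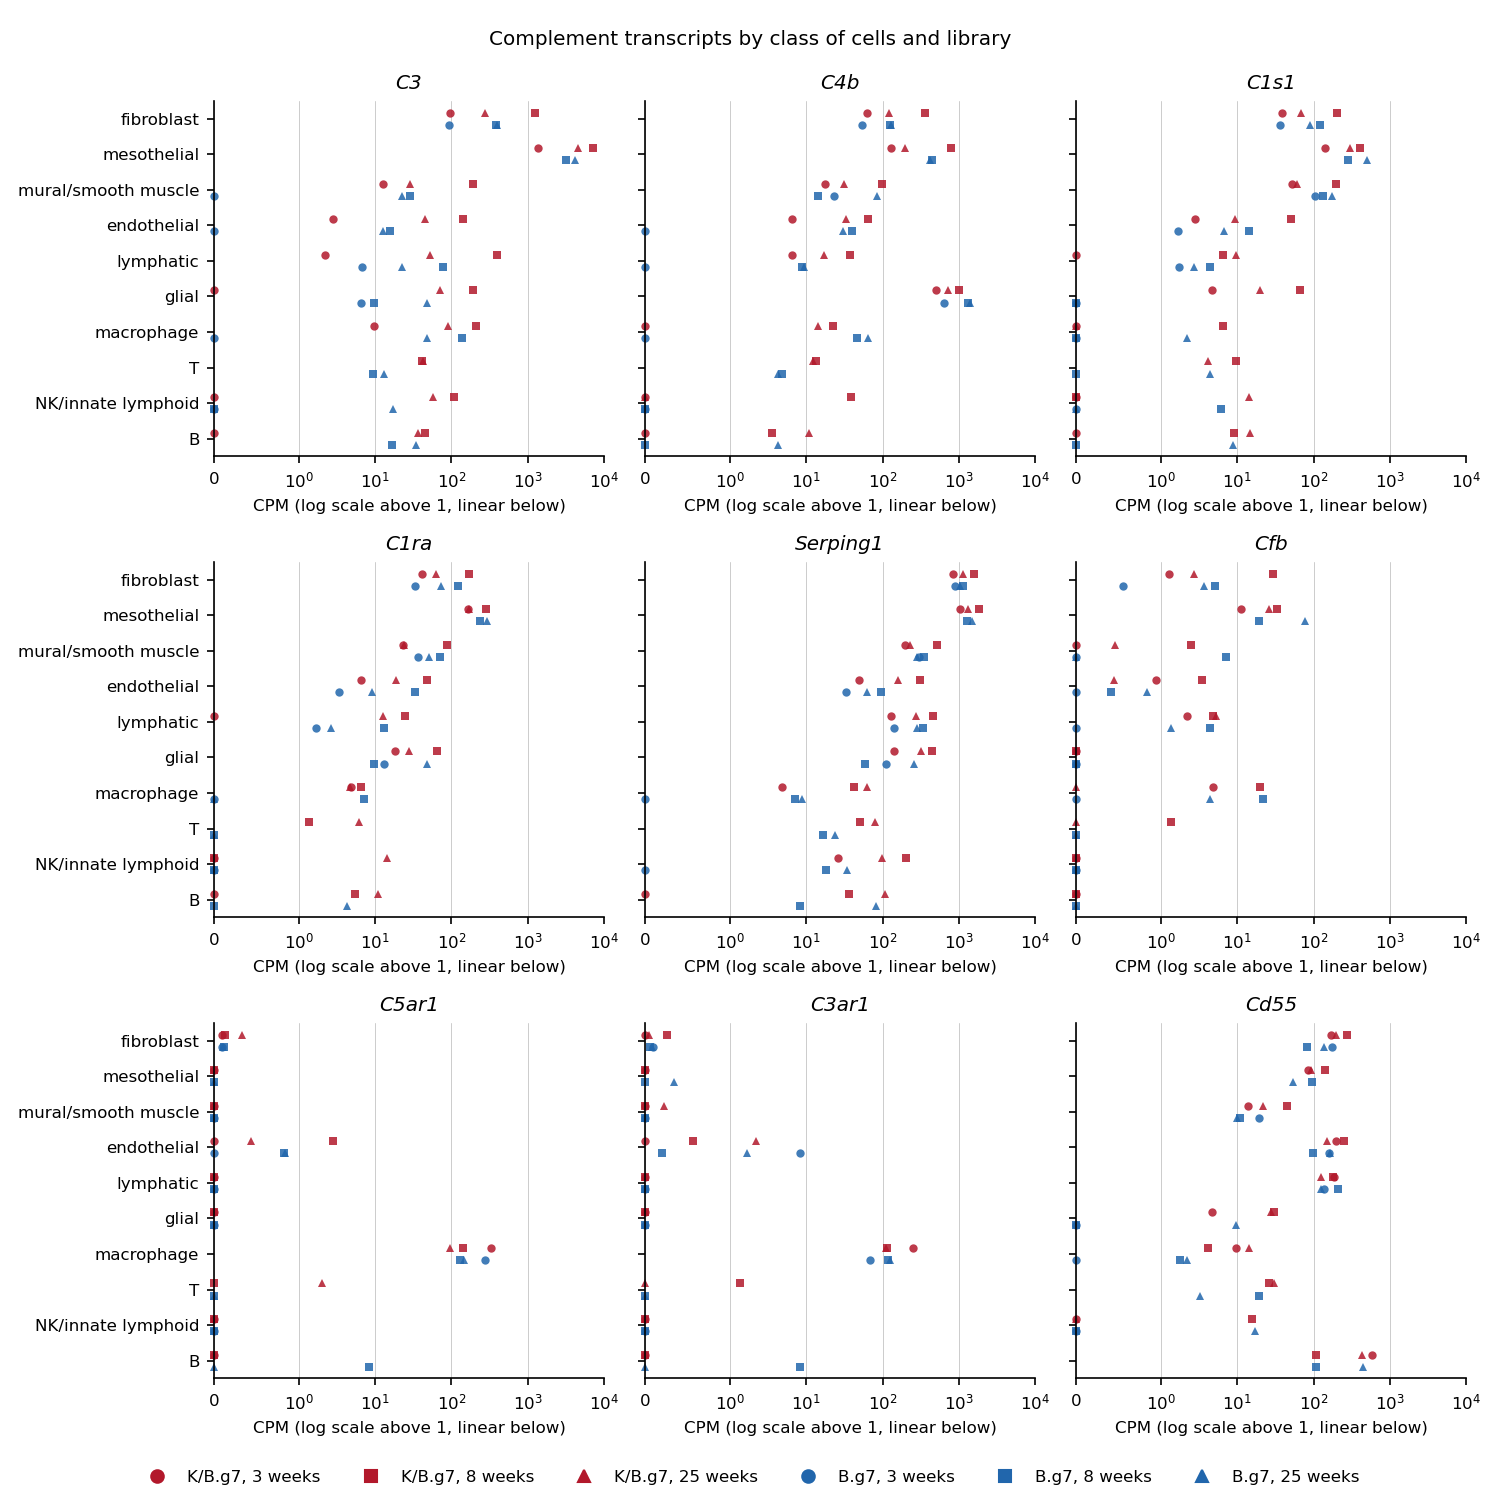
Level of each of the 9 complement genes (CPM, log axis above 1 and linear below) in each cell class, with 1 point per library and class of at least 20 cells, K/B.g7 and B.g7 in different colours. C3 reaches 7176 CPM in mesothelial-like cells, and C5ar1 and C3ar1 stand out in macrophage-like cells.

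Between 3 and 8 weeks, complement genes rose in the fibroblast-like cells of both genotypes. C3, C4b, C1s1, C1ra and Cfb, which is 5 of the 7 genes with enough UMIs to test, rose past the threshold, against 4.52% of the 13929 genes tested in these cells that changed and 2.64% that rose. C5ar1 and C3ar1 had at most 14 UMIs in a library there and were not tested. The median log2 change of the 7 was 2.02, and that of all genes 0.02. The fit had age and genotype as terms, so the genotypes at 1 age served as the replicates of that age, and the libraries are the only replicates.

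C3 rose by 3.05 ± 0.50 on the log2 scale (SE, edgeR adjusted p = 0.0194), with its 3- and 8-week levels given above. C4b had 62.8, 363 and 122 CPM at 3, 8 and 25 weeks in K/B.g7 fibroblast-like cells, against 53.3, 126 and 127 CPM in B.g7, and rose by 2.01 ± 0.36 from 3 to 8 weeks (edgeR adjusted p = 0.0268). Cfb had 1.29, 29.0 and 2.72 CPM in K/B.g7, against 0.55, 5.13 and 3.67 CPM in B.g7, and rose by 4.05 ± 0.70 (edgeR adjusted p = 0.0236). Both 8-week libraries lay above both 3-week libraries for each of these genes, and the 8-week K/B.g7 library was the highest of all.

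The neighbours C1s1 and C1ra moved alike. C1s1 had 38.4, 205 and 67.9 CPM in K/B.g7 fibroblast-like cells at 3, 8 and 25 weeks, against 35.8, 121 and 88.2 CPM in B.g7, and rose by 2.17 ± 0.29 from 3 to 8 weeks (edgeR adjusted p = 0.00976). C1ra had 41.6, 171 and 63.4 CPM, against 33.3, 122 and 72.4 CPM, and rose by 2.02 ± 0.23 (edgeR adjusted p = 0.00753). The 8-week libraries were the highest of each genotype for both proteases. Of the other complement genes, C1rb, the close relative of C1ra, rose by 2.11 ± 0.19 (edgeR adjusted p = 0.00233), with 7.78, 33.9 and 20.05 CPM in K/B.g7 and 7.66, 30.01 and 14.9 CPM in B.g7.

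Serping1 and Cd55, the regulators, did not pass this test. Serping1 had 846, 1553 and 1122 CPM at 3, 8 and 25 weeks in K/B.g7 fibroblast-like cells, against 889, 1145 and 1040 CPM in B.g7 (8 over 3 weeks, log2 0.68 ± 0.24, edgeR adjusted p = 0.152). Cd55 had 167, 270 and 194 CPM in K/B.g7, against 173, 81.3 and 136 CPM in B.g7, so its 8-week level was the highest of the 6 libraries in K/B.g7 and the lowest in B.g7 (log2 −0.10 ± 0.37, edgeR adjusted p = 0.901). With equal weight for 8 fibroblast-like clusters, described further on, Cd55 was 181, 268 and 212 CPM in K/B.g7, against 174, 165 and 167 CPM in B.g7. The part of the cluster mix in these levels was not tested.

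From 8 to 25 weeks none of the 7 genes passed in fibroblast-like cells (background 0.079%), with log2 differences of −1.14 ± 0.48 for C3, −1.13 ± 0.23 for C1ra and −2.04 ± 0.61 for Cfb (edgeR adjusted p of 0.77, 0.21 and 0.46). From 3 to 25 weeks none passed either (background 0.309%). All 5 rises from 3 to 8 weeks lost the threshold when the 3-week K/B.g7 library was left out, with C3 then at 2.83, C4b at 1.82, C1s1 at 2.20, C1ra at 2.19 and Cfb at 4.26 on the log2 scale.

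**Figure D2:**
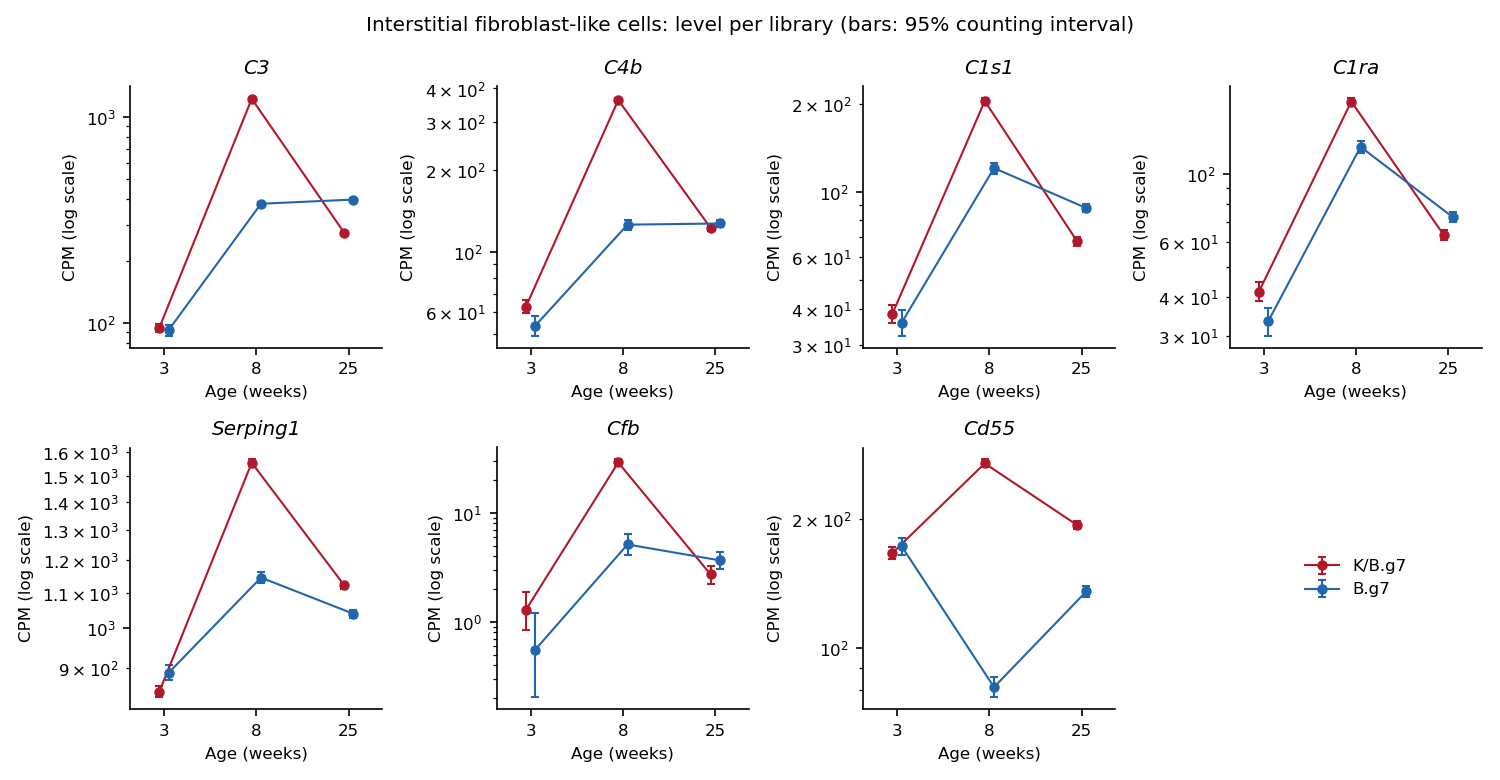
Level (CPM, log axis) of 7 complement genes in interstitial fibroblast-like cells by age in weeks, K/B.g7 left of B.g7, with 95% counting intervals of the single library at each point. The 8-week K/B.g7 library is the highest for all 7 genes (C3 1226 CPM), and the B.g7 libraries also stand higher at 8 than at 3 weeks except for Cd55.

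Complement genes also rose between 3 and 8 weeks in 4 other classes. In endothelial-like cells C3, C4b, C1s1, C1ra and Serping1 rose (5 of 6 tested, background 1.59%, and 1.02% higher), C3 by 5.58 ± 0.60, C1s1 by 3.82 ± 0.58 and Serping1 by 2.24 ± 0.33 on the log2 scale (edgeR adjusted p of 0.000395, 0.00589 and 0.00481). In mural or smooth muscle-like cells C3, C4b, C1s1 and C1ra rose (4 of 6, background 4.8%, and 3.13% higher), C3 by 3.77 ± 0.49 (edgeR adjusted p = 1.22e-05). In lymphatic endothelial-like cells C3 rose by 5.45 ± 0.50 and Serping1 by 1.64 ± 0.26 (2 of 3, background 3.89%, and 2.45% higher, edgeR adjusted p of 6.28e-09 and 0.000118), and in macrophage-like cells C3 rose by 4.95 ± 0.60 (1 of 3, background 4.7%, and 2.83% higher, edgeR adjusted p = 0.00169). From 8 to 25 weeks C3 fell in mural cells by 2.06 ± 0.43 and in lymphatic endothelial-like cells by 2.61 ± 0.34 on the log2 scale (edgeR adjusted p of 0.00834 and 1.73e-05), and C1ra fell in mural cells by 1.32 ± 0.34 (edgeR adjusted p = 0.0421). These were 2 of 6 genes in mural cells (background 1.45%, and 0.515% lower) and 1 of 3 in lymphatic endothelial-like cells (background 0.197%, and 0.169% lower). Without the 8-week K/B.g7 library the mural fall of C3 was −0.78 and without the 25-week K/B.g7 library −0.23, and neither passed. The mural fall of C1ra did not pass without the 3-, 8- or 25-week K/B.g7 library either (−1.31, −0.66 and −0.80). No complement gene passed in endothelial-like (0 of 6, background 0.228%) or macrophage-like cells (0 of 3, background 3.12%). From 3 to 25 weeks C3 and Serping1 rose in lymphatic endothelial-like cells (2 of 3, background 4.13%, and 2.6% higher), by 2.85 ± 0.60 and 1.06 ± 0.26 (edgeR adjusted p of 0.00312 and 0.0119). In glial-like cells neither C4b nor Serping1 passed from 3 to 8 weeks (0 of 2, background 1.56%), from 8 to 25 weeks (background 0.0312%) or from 3 to 25 weeks (background 2.03%). From 3 to 25 weeks none passed in endothelial-like (0 of 6, background 0%), mural (0 of 6, background 1.53%) or macrophage-like cells (0 of 3, background 0.394%), and from 8 to 25 weeks none in mesothelial-like cells (0 of 7, background 0%).

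Levels of C3 at 3 weeks rest on few UMIs outside fibroblast-like and mesothelial-like cells. Lymphatic endothelial-like cells were 47 in the K/B.g7 library and 48 in the B.g7 library at 3 weeks, with the few C3 UMIs given further on. Their changes with age were not refitted with libraries left out, unlike those of the classes below. Endothelial-like cells had 3 C3 UMIs in 247 cells of the K/B.g7 library and 0 in 110 cells of the B.g7 library, where the floor of 3 UMIs stands at 4.98 CPM, and macrophage-like cells had 2 UMIs in 62 cells and 0 in 36 cells. Without the 3-week K/B.g7 library the C3 rise no longer passed in endothelial-like cells (log2 8.45) or macrophage-like cells (9.38), and of the 5 endothelial-like rises only that of C4b was kept (C1s1 3.43, C1ra 3.36 and Serping1 1.76 were not called), and without the 3-week B.g7 library it did not pass in macrophage-like cells (4.56). Without the 8-week K/B.g7 library the C3 rise in mural cells was 2.34, that of C1s1 0.20 and that of C1ra 0.82, none passed, and C4b there was −1.12. C4b and C1s1 in mural cells also did not pass without either 3-week library (C4b 1.55 without K/B.g7 and 1.76 without B.g7, C1s1 1.04 and 1.38), nor C1ra without the 3-week K/B.g7 library (1.42).

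Fibroblast-like cells formed 12 clusters, and the complement genes had different orders across them. Genes of the complement list were kept out of the clustering. C3 was highest in the cluster led by Mmp3, Lcn2 and Saa3, genes of acute inflammation, at 2283 CPM, and this cluster reached 20 cells only in the 8-week K/B.g7 library (420 cells). Its mean over libraries was lowest in the cluster led by Chad, Fmod and Comp, genes of a cartilage-like matrix, with 2.30, 312 and 87.5 CPM in K/B.g7 at 3, 8 and 25 weeks, against 10.18, 71.2 and 41.8 CPM in B.g7. The cluster led by Ccl11, Cxcl14 and Ccl7, which are chemokines, had 1766 and 665 CPM of C3 in K/B.g7 at 8 and 25 weeks, against 1218 and 2037 CPM in B.g7. In every cluster with at least 20 cells of both 8-week libraries, C3 was higher in K/B.g7 than in B.g7 at 8 weeks.

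C4b and Cd55 differed from C3 in their order across clusters. Like C3, C4b was highest in the Mmp3 cluster. By mean over libraries, next for both was the Ccl11 cluster, with means over 4 libraries of 328 CPM for C4b and 1421 CPM for C3. These means hold no 3-week library, because the cluster had too few cells there. In the 8-week K/B.g7 library, the source of the Mmp3 level, the cluster led by Wif1 came next for C4b. Its 567 CPM there was above the highest C4b level of the Ccl11 cluster in any library (504 CPM). C4b was high in the Mmp3 cluster (772 CPM) and in the cluster led by Wif1, a secreted Wnt inhibitor, with 137, 567 and 318 CPM in K/B.g7 at 3, 8 and 25 weeks, against 162, 169 and 207 CPM in B.g7, where C3 was 4.80, 386 and 91.7 CPM, against 9.78, 46.9 and 61.1 CPM. The cluster led by Cd248, Ly6c1 and Pi16, markers of adventitial-type fibroblasts, had the reverse order, with C3 at 177, 1382 and 442 CPM in K/B.g7, against 129, 701 and 581 CPM in B.g7, and C4b at 7.71, 207 and 17.5 CPM, against 3.40, 72.1 and 8.01 CPM. Cd55 was highest in that Pi16 cluster, with 647, 845 and 692 CPM in K/B.g7, against 564, 579 and 546 CPM in B.g7, and lowest in the Wif1 cluster, with at most 37.3 CPM. In the Pi16 cluster every K/B.g7 library had more Cd55 than every B.g7 library, with no test of the difference. Cd55 is itself among the leading genes of that cluster, although it was not used to form it.

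Cfb was concentrated in the Mmp3 cluster, at 141 CPM, while no other cluster reached 30 CPM in any library. Giving each of the 8 clusters present in all libraries the same weight, Cfb was 1.24, 7.81 and 2.47 CPM in K/B.g7 at 3, 8 and 25 weeks, against 0.55, 3.45 and 2.18 CPM in B.g7. C3 on this equal weighting was 106, 781 and 252 CPM in K/B.g7, against 81.0, 302 and 285 CPM in B.g7, and C4b 66.0, 236 and 111 CPM, against 40.6, 84.9 and 94.2 CPM. With equal weights the 8-week libraries thus stayed the highest of K/B.g7 for the 3 genes, and the K/B.g7 level of Cd55 at 8 weeks was 268 CPM, against 165 CPM in B.g7.

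**Figure D3:**
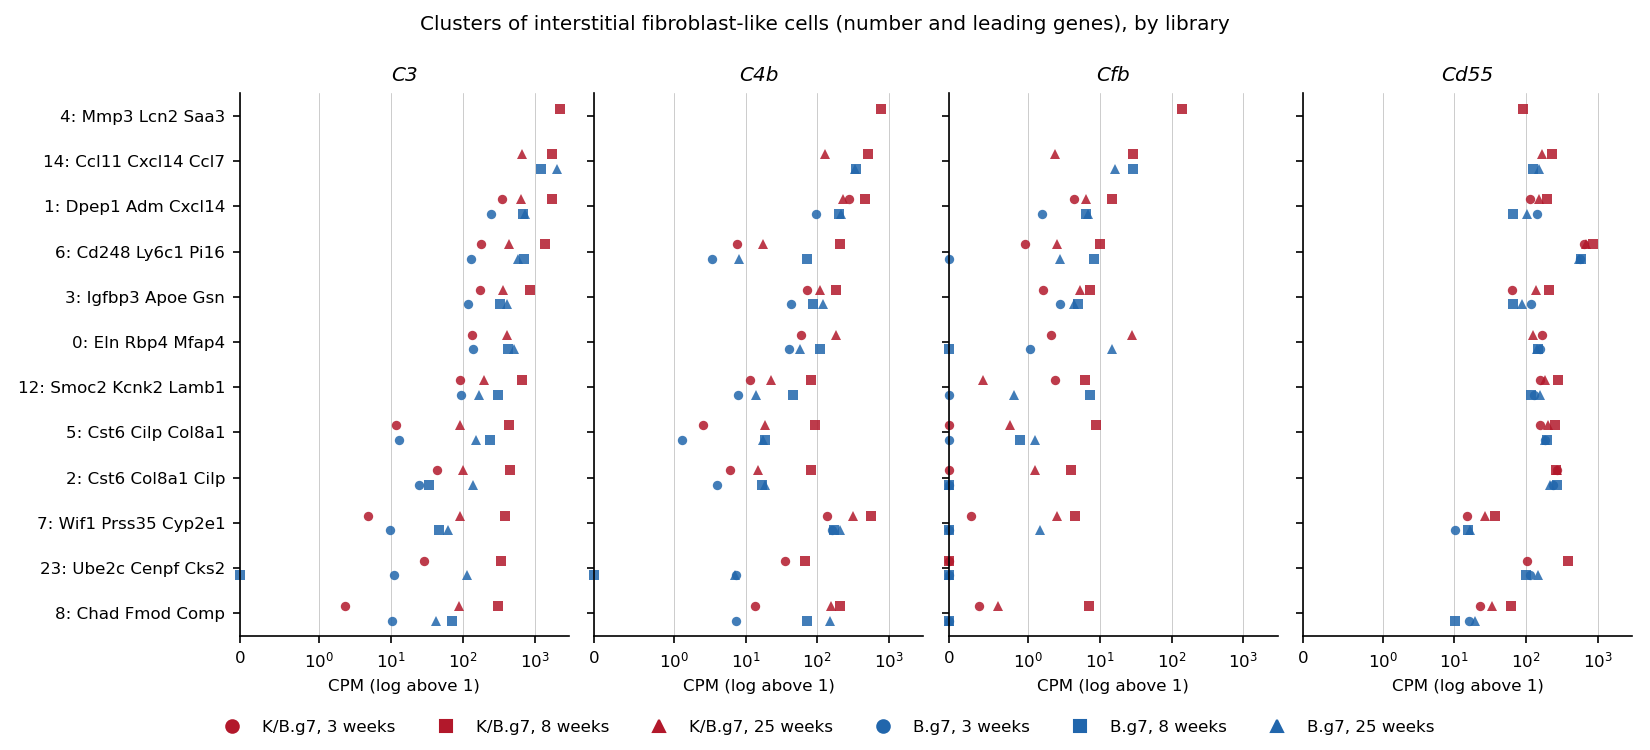
Level (CPM) of C3, C4b, Cfb and Cd55 in each fibroblast-like cluster, named by its leading genes, on an axis that is log above 1 CPM and linear below, with 1 point per library of at least 20 cells. C3 and Cfb peak in the Mmp3 cluster of the 8-week K/B.g7 library (2283 and 141 CPM), and Cd55 in the Pi16 cluster.

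Within fibroblast-like cells C3 was unevenly spread, and Serping1, which had the higher level in each library, was spread more evenly. A C3 UMI was found in 14.8%, 77.2% and 32.7% of K/B.g7 cells at 3, 8 and 25 weeks, against 13.4%, 33.3% and 36.6% of B.g7 cells. After thinning each cell to 1000 UMIs, which left out 112, 150 and 296 shallower K/B.g7 cells and 97, 453 and 89 shallower B.g7 cells, the shares were 6.45%, 51.5% and 18.4% in K/B.g7, against 6.48%, 18.2% and 18.7% in B.g7. For comparison, thinned shares in T-like cells were 4.16% and 4.09% in K/B.g7 at 8 and 25 weeks, against 1.11% and 1.88% in B.g7, at median depths of 2711 and 1113.5 UMIs, against 3321.5 and 1582 UMIs. Fibroblast-like cells had median depths of 2917 to 5782.5 UMIs. The thinned share of Serping1 was 48.5%, 72.1% and 60.7% in K/B.g7 fibroblast-like cells, against 52.0%, 62.1% and 55.6% in B.g7.

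Among cells of at least 1000 UMIs, the 10% with the most C3 UMIs held 88.7%, 45.4% and 63.0% of the C3 UMIs of K/B.g7 fibroblast-like cells at 3, 8 and 25 weeks, against 89.5%, 71.5% and 70.6% in B.g7. For Serping1 the top 10% held between 27.8% and 32.8% in all libraries. These cells averaged 0.44, 6.01 and 0.85 C3 UMIs in K/B.g7, against 0.33, 2.02 and 2.37 in B.g7. For Serping1 they averaged 3.95, 7.64 and 3.52 UMIs, against 3.23, 6.07 and 6.20. A low mean by itself raises the share held by the top 10%, and means were not matched between genes or libraries. In the 8-week K/B.g7 library 19.0% of these cells had at least 10 C3 UMIs, against 4.57% in the 8-week B.g7 library. Cfb was found in 8.97% of C3-positive and 0.869% of C3-negative such cells of the 8-week K/B.g7 library, against 4.79% and 0.459% in B.g7. C1ra was found in 58.9% of C1s1-positive and 35.6% of C1s1-negative cells of that K/B.g7 library, against 56.4% and 33.4% in B.g7. Positive cells were deeper, with medians of 4468.5 UMIs in C3-positive and 4096 UMIs in C3-negative cells of the K/B.g7 library, and depth was not matched in these pairs.

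Between genotypes, no complement gene passed the test in fibroblast-like cells over the 3 ages. All 7 tested genes had a log2 difference above 0, with Cfb at 1.03 ± 0.55, Cd55 at 0.69 ± 0.30, C4b at 0.53 ± 0.29 and C3 at 0.35 ± 0.39 (SE), and the smallest edgeR adjusted p was 0.763, for Cd55. The direction turned for 5 of the 7 in cells with Y-linked UMIs alone (C3 −0.99, C1s1 −0.53, Cfb −0.45, C1ra −0.27 and Serping1 −0.070) and for C4b in cells with Xist alone (−0.023). At 8 weeks the cells with Y-linked UMIs alone were 1528 in K/B.g7 and only 90 in B.g7. The background was 0 of 13929 genes (0%), with 906 genes at an unadjusted p under 0.05, so this fit of 2 residual degrees of freedom called no gene at all. The median log2 difference of the 7 genes was 0.35 and that of all genes 0.01. A test over the ages counts any change of the genotype difference with age as spread.

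At 8 weeks, where each genotype had 1 library, the ratios of K/B.g7 to B.g7 levels in fibroblast-like cells were 5.66 for Cfb (95% counting interval 4.53 to 7.14), 3.32 for Cd55 (3.13 to 3.52), 3.23 for C3 (3.15 to 3.32) and 2.88 for C4b (2.75 to 3.02). They were 1.69 for C1s1, 1.40 for C1ra and 1.36 for Serping1. At 3 weeks the C3 ratio was 1.03 (0.952 to 1.11) and at 25 weeks 0.691 (0.674 to 0.708). These intervals cover counting error alone, and with 1 library per genotype and age there is no test of the difference at an age. With the equal weighting of clusters given above, the 8-week levels of the genotypes lay closer together. Cfb was then 7.81 CPM in K/B.g7 and 3.45 CPM in B.g7, and Cd55 268 CPM and 165 CPM. The part of the cluster mix in these ratios was not tested. The libraries also differed in the sex of their cells, and at 8 weeks cells with Y-linked UMIs and no Xist were 1528 of 6359 fibroblast-like cells in K/B.g7 and 90 of 3581 in B.g7. Among cells with Xist and no Y-linked UMI, C3 at 8 weeks was 1173 CPM in K/B.g7 and 294 CPM in B.g7, and among the Y-linked cells 1267 CPM in K/B.g7 and 3133 CPM in B.g7. The part of sex in the genotype differences was not tested. The genotype difference of C3 turned to −0.30 on the log2 scale when the 8-week pair was left out, and was −0.30 without the 8-week K/B.g7 library and −0.26 without the 8-week B.g7 library.

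C3 did rise in K/B.g7 over B.g7 valves in 3 vascular classes. In endothelial-like cells it had 2.81, 143 and 45.6 CPM in K/B.g7 at 3, 8 and 25 weeks, against 0, 15.8 and 12.6 CPM in B.g7, and was higher at each age. The log2 difference was 2.61 ± 0.35 (edgeR adjusted p = 0.0253), and 1 of 6 complement genes passed against 0.0934% of 9633 genes (0.083% higher). In mural or smooth muscle-like cells it had 12.8, 193 and 28.6 CPM in K/B.g7, against 0, 28.7 and 22.5 CPM in B.g7, with a log2 difference of 1.62 ± 0.41 (edgeR adjusted p = 0.0236; 1 of 6 genes, background 3.12%, and 1.08% higher). In lymphatic endothelial-like cells it had 2.19, 391 and 52.7 CPM in K/B.g7, against 6.81, 78.3 and 22.8 CPM in B.g7, with 1.61 ± 0.34 (edgeR adjusted p = 0.0139; 1 of 3 genes, background 0.323%, and 0.295% higher). The lymphatic endothelial-like level at 3 weeks was lower in K/B.g7, on 1 and 4 UMIs. Unlike the other 2 fits, the lymphatic endothelial-like fit was added after the levels were seen.

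Each of these 3 calls depended on single libraries and on the processing. None passed with the age block dropped (2.41 in endothelial-like, 2.14 in mural and 2.43 in lymphatic endothelial-like cells; edgeR adjusted p of 1, 0.791 and 0.985). Under DESeq2 and at no more than 5% mitochondrial UMIs the mural rise (2.26 and 1.40) and the lymphatic rise (1.05 and 1.45) did not pass, while the endothelial-like rise did. With predicted doublets kept, the endothelial-like rise (1.66) and the lymphatic rise (0.98) did not pass, and with Xist cells alone the lymphatic rise (2.03) did not. The mural rise passed in 6 of 15 alternatives, the lymphatic rise in 8 of 16 and the endothelial-like rise in 12 of 15. The endothelial-like rise was 1.86 without the 8-week B.g7 library and did not pass, and it was 1.66 with predicted doublets kept and did not pass. The lymphatic rise was 0.85 without the 8-week K/B.g7 library and 0.84 without the 8-week B.g7 library and did not pass. The mural rise did not pass without either 3-week library (1.42 without K/B.g7, 1.41 without B.g7) or either 8-week library (0.91 without K/B.g7, 0.93 without B.g7). Serping1, at 48.7, 311 and 157 CPM in K/B.g7 endothelial-like cells, against 33.2, 95.3 and 62.8 CPM in B.g7, was higher at each age and did not pass (log2 1.24 ± 0.26, edgeR adjusted p = 0.107). C1s1 there was 2.81, 50.03 and 9.29 CPM in K/B.g7, against 1.66, 14.4 and 6.70 CPM in B.g7 (log2 1.28 ± 0.38, edgeR adjusted p = 0.441).

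**Figure D4:**
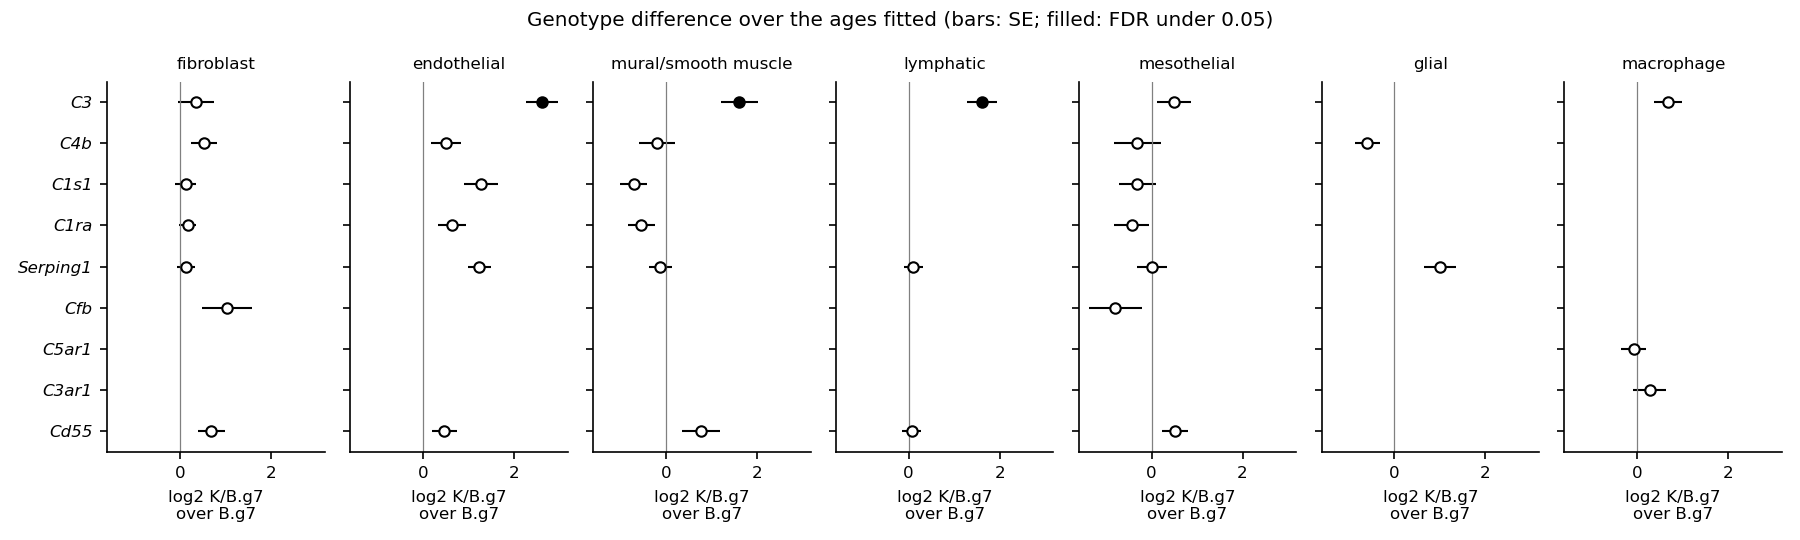
Log2 difference of K/B.g7 over B.g7 with its standard error for each tested complement gene in each class, filled where the edgeR adjusted p is under 0.05. The filled points are C3 in endothelial-like (2.61), mural (1.62) and lymphatic endothelial-like cells (1.61).

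Fibroblast RNA moved with the endothelial-like result by summed level, but at 3 weeks not by the percent of the fibroblast-like level. The summed level of 7 fibroblast markers (Dcn, Col1a1, Col1a2, Col3a1, Lum, Dpt and Pdgfra) in endothelial-like cells was 4220, 5331 and 4178 CPM in K/B.g7 at 3, 8 and 25 weeks, against 3526, 2918 and 3361 CPM in B.g7, with no marker at 0, and in mural cells 6715, 5978 and 4746 CPM, against 4796, 3358 and 3919 CPM. As a percent of its level in fibroblast-like cells of the same library, C3 in endothelial-like cells stood at 2.96%, 11.7% and 16.6% in K/B.g7, against 0%, 4.18% and 3.16% in B.g7, and the median of the 7 markers at 5.24%, 16.9% and 14.3%, against 8.37%, 10.17% and 7.59%. C3 lay below the marker median in 5 of 6 libraries there. In mural cells C3 stood at 13.4%, 15.7% and 10.4% in K/B.g7, against 0%, 7.56% and 5.67% in B.g7, beside marker medians of 10.1%, 37.3% and 12.7%, against 13.2%, 13.7% and 12.9%. Red cell markers summed to 2842 CPM in endothelial-like cells of the 8-week K/B.g7 library and to at most 119 CPM in the other libraries. In mural cells they summed to 298, 644 and 64.1 CPM in K/B.g7, against 25.0, 17.9 and 73.9 CPM in B.g7, and in macrophage-like cells to 4018 CPM in the 8-week K/B.g7 library and at most 85.7 CPM in the others. The marker median in endothelial-like cells was also higher at 8 than at 3 weeks in both genotypes, as were the 5 complement genes that rose there with age. The summed markers there were higher at 8 than at 3 weeks in K/B.g7 and lower in B.g7. In mural cells the summed markers were lower at 8 than at 3 weeks in both genotypes. The part of fibroblast or red cell RNA in the rises with genotype and age was not tested.

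Lymphatic endothelial-like and macrophage-like cells differed in this respect. C3 in lymphatic endothelial-like cells stood at 2.30%, 31.9% and 19.2% of its fibroblast-like level in K/B.g7, against 7.36%, 20.7% and 5.72% in B.g7, while the highest of the 7 markers reached 1.93%, 8.11% and 9.96%, against 2.74%, 1.64% and 2.97%. C3 was thus above every fibroblast marker in 5 libraries, and in the 3-week K/B.g7 library it rested on 1 UMI, under the floor of 3. Macrophage-like cells had C3 at 10.04%, 16.9% and 32.9% in K/B.g7, against 0%, 36.2% and 12.01% in B.g7, and the highest marker at 1.09%, 2.68% and 10.6%, against 0.847%, 3.06% and 8.51%, so C3 was above every marker at 8 and 25 weeks, and at 3 weeks K/B.g7 had only 2 C3 UMIs and B.g7 had 0. Mesothelial-like cells, the other main source of C3, are not part of this comparison.

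**Figure D5:**
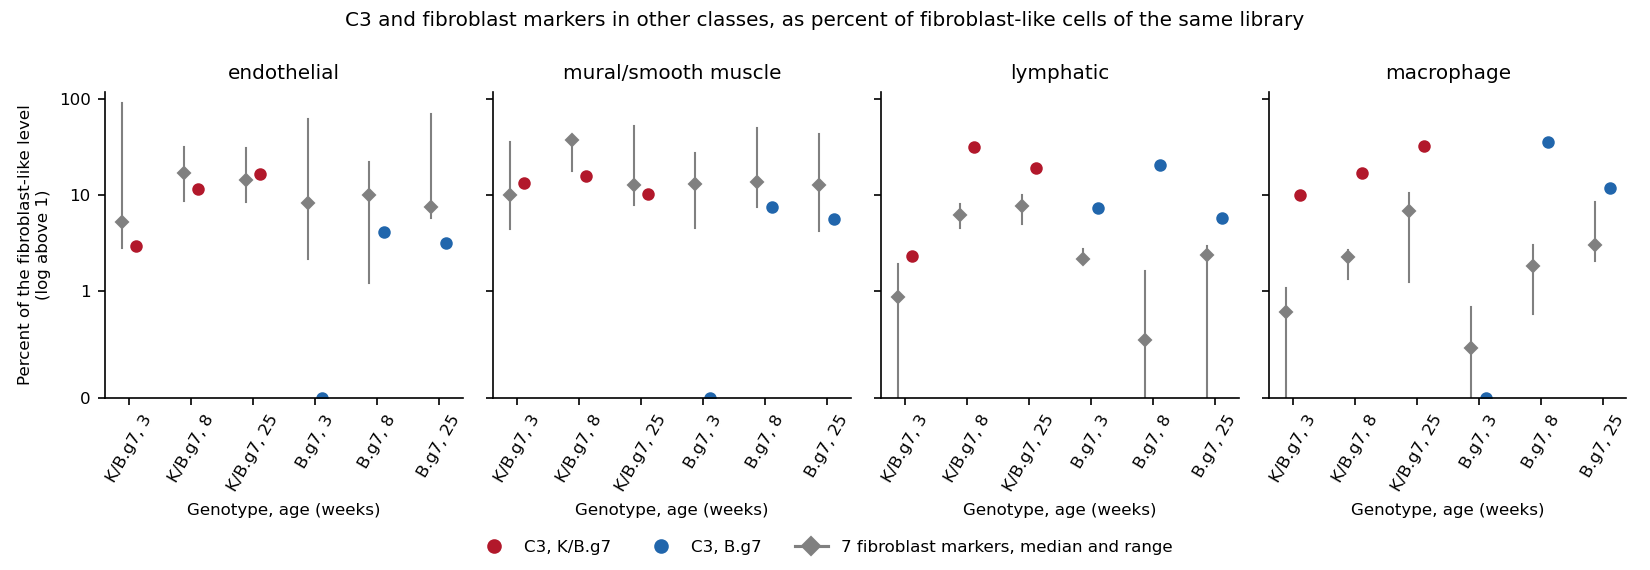
Level of C3 and of 7 fibroblast markers (median and range) in 4 classes as a percent (log axis above 1) of their level in fibroblast-like cells of the same library. C3 lies within or below the markers' range in endothelial-like and mural cells and above it in lymphatic endothelial-like cells, where the 3-week K/B.g7 point rests on 1 UMI.

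In mesothelial-like, glial-like and macrophage-like cells no complement gene differed between genotypes past the threshold. The mesothelial-like fit had the 8- and 25-week libraries alone and called 0 of 7 genes (background 0% of 10816), with C3 at 0.49 ± 0.37 and Cfb at −0.80 ± 0.58 on the log2 scale (edgeR adjusted p of 0.693 and 0.681). Cfb in these cells had 33.2 and 26.0 CPM in K/B.g7 at 8 and 25 weeks, against 19.2 and 76.9 CPM in B.g7. Glial-like cells gave 0 of 2 genes (background 0.0625%), with C4b lower in K/B.g7 at each age (log2 −0.60 ± 0.27, edgeR adjusted p = 1). Macrophage-like cells gave 0 of 3 genes (background 0.0525%), with log2 differences of 0.68 ± 0.32 for C3, −0.08 ± 0.27 for C5ar1 and 0.27 ± 0.36 for C3ar1. C3ar1 at 3 weeks had 53 UMIs in 62 K/B.g7 cells, against 7 UMIs in 36 B.g7 cells, a ratio of 3.73 (95% counting interval 1.69 to 9.72), and the ratio was near 1 at 8 weeks (0.957) and 25 weeks (0.869).

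The genotype difference itself was compared between each class and fibroblast-like cells. For C4b the log2 difference in macrophage-like cells minus that in fibroblast-like cells was −2.50 ± 0.56 (edgeR adjusted p = 0.0277; 15 of 13040 genes, 0.115%, passed), and in glial-like cells it was −1.06 ± 0.26 (edgeR adjusted p = 0.0462; 16 of 12535 genes, 0.128%). Macrophage-like cells had 0, 22.3 and 14.3 CPM of C4b in K/B.g7, against 0, 46.4 and 65.1 CPM in B.g7, on at most 38 UMIs. Neither C4b call was made without the 8-week libraries or without the 25-week libraries. For C3 the difference was larger in endothelial-like cells by 1.69 ± 0.45, in mural cells by 1.37 ± 0.38 and in lymphatic endothelial-like cells by 1.25 ± 0.49, and none of these passed (edgeR adjusted p of 0.525, 0.412 and 0.923; background 0.0225%, 0.023% and 0.0155%). A larger C3 rise in vascular classes than in fibroblast-like cells was therefore not shown.

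Of 47 other complement genes, 46 were found in the tables, and C4a is not analysed here. Mean levels in fibroblast-like cells (n = 6) were 180 ± 21.4 CPM for Clu, 72.6 ± 6.38 CPM for Cr1l, 69.2 ± 10.8 CPM for Cd59a, which blocks the membrane attack complex, 52.8 ± 38.8 CPM for C7 and 19.1 ± 11.1 CPM for C1rb. Of 25 tested there, 3 rose from 3 to 8 weeks (4.52% of all genes changed and 2.64% rose), C1rb, Cfi (2.25 ± 0.44, edgeR adjusted p = 0.0333) and Csmd1 (3.23 ± 0.54, edgeR adjusted p = 0.0205), the last at no more than 3.1 CPM. None passed between genotypes, and the smallest p-values were those of C1qb, Masp1, C1rl and C7 (log2 1.13, 1.19, −0.48 and 1.28, edgeR adjusted p from 0.638 to 0.735). C7, a component of the membrane attack complex, had 29.0, 112 and 87.0 CPM in K/B.g7, against 27.9, 12.3 and 48.3 CPM in B.g7.

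In macrophage-like cells the highest were the 3 chains of C1q, with C1qa at 3771 ± 1882 CPM, C1qb at 2983 ± 1283 CPM and C1qc at 1980 ± 864 CPM, then Cfp (213 ± 89.2 CPM), which encodes the stabiliser properdin, and the integrin chains Itgam (171 ± 61.9 CPM) and Itgb2 (164 ± 49.0 CPM). C1qa fell from 3 to 8 weeks by 1.12 ± 0.28 on the log2 scale (edgeR adjusted p = 0.0472) and Itgax rose by 2.32 ± 0.45 (edgeR adjusted p = 0.016), 2 of 9 tested, against 4.7% of all genes there that changed (2.83% higher and 1.86% lower). Clusters of these cells also shifted, since 202 of 235 barcodes of the macrophage-like cluster led by Il1b, Ctss and Cd74 came from the 8-week K/B.g7 library.

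In lymphatic endothelial-like cells Clu rose from 3 to 8 weeks by 1.58 ± 0.43 and Cd59a fell, at −1.34 ± 0.39 (edgeR adjusted p of 0.031 and 0.0428; 3.89% of all genes passed), and Clu rose from 3 to 25 weeks by 1.98 ± 0.38 (edgeR adjusted p = 0.00176; 4.13% of all genes passed). Clu, a regulator of the terminal complex, also rose there in K/B.g7 over B.g7, with 32.9, 81.1 and 138 CPM in K/B.g7, against 8.51, 39.2 and 28.1 CPM in B.g7 (1.88 ± 0.32, edgeR adjusted p = 0.00139; 0.323% of all genes passed, and 0.295% higher). The Clu levels come from 47, 120 and 270 such cells in K/B.g7, against 48, 57 and 123 in B.g7, and no alternative fit of Clu was made. No other complement gene passed between genotypes in endothelial-like (7 tested, Clu closest at 0.80 ± 0.26, edgeR adjusted p = 0.535), macrophage-like (9 tested, Cfp at −0.85 ± 0.37, edgeR adjusted p = 0.989), mesothelial-like (15 tested) or glial-like cells (4 tested). In mural cells Colec11, a lectin-pathway recognition molecule, fell in K/B.g7 (log2 −1.61 ± 0.33, edgeR adjusted p = 0.00439), with 42.2, 352 and 80.1 CPM, against 211, 330 and 445 CPM in B.g7. Of all genes there, 3.12% passed between genotypes and 2.04% were lower. Colec11 rose from 3 to 8 weeks together with Vtn (2.00 ± 0.41 and 2.19 ± 0.45), where 4.8% of all genes passed and 3.13% were higher. Both genes are among the leading genes of 1 of the 2 mural clusters, which held 17, 106 and 207 barcodes in K/B.g7 at 3, 8 and 25 weeks, against 45, 30 and 74 in B.g7. The other, led by Acta2, Tagln and Myh11, held 424, 122 and 1211 barcodes in K/B.g7, against 133, 69 and 119 in B.g7. C3 was 185 CPM in the cluster with Colec11 and Vtn and 26.6 CPM in the other. The mix of clusters within mural cells moved with these results, and its part in them was not tested.

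The genes with the pattern most like that of each complement gene were found by Pearson r of log2(CPM + 1) over 60 class sums of 13 classes. C5ar1 was most like Clec4a2 and Cd300ld (r = 0.973 and 0.971), C3ar1 like Fcgr1 and Il1a (0.959 and 0.952), Serping1 like Abi3bp and Aebp1 (0.893 and 0.882), C1s1 like Plekhh2 and C1rb (0.888 and 0.883) and C1ra like Gstt1 and Cys1 (0.890 and 0.840). C4b was most like Aldh1a1 and Cys1 (0.861 and 0.845), C3 like Gsta3 and Il33 (0.806 and 0.804), Cd55 like Gm15675 and Ebf1 (0.778 and 0.702) and Cfb like Dmkn and Dhrs9 (0.768 and 0.745). The class sums share libraries and depth, and these values are descriptions.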

How the data were processed

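Single-cell RNA from mitral valves was counted as UMIs per gene and barcode, and the authors' deposited filtered matrices hold raw counts, made with Cell Ranger 3.1.0 on mm10 per the submitters' processing notes. The complement genes, gene lists and tests were chosen with earlier results of these data known. Of 58351 barcodes, 53526 passed minimums of 500 UMIs and 300 genes and a maximum of 10% mitochondrial UMIs. The highest Scrublet scores, at a rate of 0.8% per 1000 barcodes, marked 5203 predicted doublets, which were left out, because the automatic threshold marked at most 42 barcodes of a library. Cells were clustered with scanpy 1.11.5 (2000 variable genes without complement genes, 30 components, 15 neighbours, Leiden resolution 1.0) into 43 clusters, of which 7, with 971 cells, stayed unnamed. UMIs were summed per class and library where at least 20 cells were present and tested with edgeR 4.0.16 (quasi-likelihood test, TMM factors, filterByExpr, Benjamini-Hochberg adjustment over all genes tested, threshold 0.05), with age as a block and genotype. SE is the log2 change divided by the square root of F.

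Age pairs the libraries of the genotypes per the labels, and deviations of same-age libraries correlated at 0.199 to 0.585 in fibroblast-like cells. Since nothing says how many mice a library holds, p-values cover the spread between libraries and nothing else, and it may be technical. Counting intervals (95%, exact Poisson) and floors of 3 UMIs cover counting error only. Mesothelial-like, glial-like and lymphatic endothelial-like fits were added after the levels were seen. Other complement genes are named where they passed a comparison, where they had one of the 4 smallest p-values, or where they were among the 6 highest in fibroblast-like or macrophage-like cells. The results of 1 gene of that list are not reported here. Alternatives were no block, DESeq2 1.42.0, RLE factors, no filter on low counts, doublets kept, at most 5% mitochondrial UMIs, cells with Xist or with Y-linked UMIs alone, and each library or age left out. Age contrasts were refitted only in fibroblast-like, endothelial-like, mural and macrophage-like cells. Those refits used DESeq2, RLE factors, no filter or 1 library left out. Other complement genes were not followed across alternatives. The fit was tested on simulated data, and the outcome is not given here.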

Additional observations from a re-analysis of the deposited data

Results flagged for a closer look

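C4b, the classical-pathway component, differed in its genotype difference between classes by the test of that difference. In macrophage-like cells the log2 difference of K/B.g7 over B.g7, minus that in fibroblast-like cells, was −2.50, and in glial-like cells it was −1.06 (edgeR's quasi-likelihood test, adjusted p of 0.0277 and 0.0462). In glial-like cells C4b had 508, 987 and 723 CPM in K/B.g7 valves at 3, 8 and 25 weeks, against 638, 1328 and 1414 CPM in B.g7 valves, while fibroblast-like cells had 62.8, 363 and 122 CPM, against 53.3, 126 and 127 CPM. The macrophage-like values rest on 0, 38 and 3 UMIs in K/B.g7, against 0, 26 and 30 UMIs in B.g7. Fibroblast markers in macrophage-like cells summed to 262, 508 and 1618 CPM in K/B.g7, against 174, 391 and 641 CPM in B.g7, and their part in the C4b values was not tested.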

How the results depend on the processing

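With age as a replicate block dropped, no complement gene passed between genotypes in endothelial-like, mural or lymphatic endothelial-like cells (0 in each, against 1 with the block), mural C4b and Serping1 turned to 0.0090 and 0.0037, and macrophage-like C5ar1 turned to 0.042 (log2). Calls between genotypes were likewise 0 in endothelial-like cells with doublets kept, with Xist cells alone and with Y-linked cells alone, 0 in mural cells under DESeq2, at most 5% mitochondrial UMIs and Xist cells alone, and 0 in lymphatic endothelial-like cells under DESeq2, doublets kept, 5% mitochondrial UMIs and Xist cells alone. With Xist cells alone C3 itself had no value in endothelial-like and mural cells, nor with Y-linked cells alone in endothelial-like cells. Those counts of 0 therefore do not show that the C3 call was lost. Without a filter on low counts they were 2 in endothelial-like and 1 in macrophage-like cells. Over the 3 age contrasts, fibroblast-like calls were 11 under DESeq2 and 13 without the filter (main 5), endothelial-like 11 and macrophage-like 6 without the filter (main 5 and 1), and mural 0 under DESeq2 (main 6). The glial-like calls against fibroblast-like cells were 4 with doublets kept (main 1).

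Directions that turned were, in fibroblast-like cells, C4b −0.023 with Xist cells alone, and C3 −0.99, C1s1 −0.53, C1ra −0.27, Serping1 −0.070 and Cfb −0.45 with Y-linked cells alone; in endothelial-like cells, C4b −0.11 (Xist) and Cd55 −0.0046 (Y-linked); in mural cells, C4b 0.16 (DESeq2) and 0.33 (doublets kept), and Serping1 0.072 (doublets kept) and 0.13 (Xist); and macrophage-like C3ar1 −0.073 (Xist). Thinned to 500 UMIs, the share of fibroblast-like cells with C3 at 8 weeks was 36.3% of K/B.g7 cells and 10.9% of B.g7 cells. The cause of these changes was not tested.

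Leaving out libraries, genotype log2 differences ranged in fibroblast-like cells from −0.30 to 0.86 for C3, −0.20 to 0.42 for C1s1, −0.029 to 2.17 for Cfb and −0.032 to 0.19 for Serping1, in macrophage-like cells from −0.24 to 0.59 for C3ar1 and −0.28 to 0.18 for C5ar1, and in mural cells from −1.05 to 1.01 for C4b and −0.42 to 0.13 for Serping1. Mural C4b from 3 to 8 weeks ranged from −1.12 to 2.59, and Cfb in mesothelial-like over macrophage-like cells from 0.83 to 2.46. Age calls ranged from 0 to 13 in fibroblast-like, 1 to 10 in endothelial-like, 2 to 9 in mural and 0 to 6 in macrophage-like cells. Genotype calls ranged from 0 to 1 in endothelial-like, mural and lymphatic endothelial-like cells and 0 to 2 in glial-like cells, and calls against fibroblast-like cells from 0 to 1 in endothelial-like, macrophage-like and glial-like and 0 to 2 in lymphatic endothelial-like cells. Over all genes, genotype calls ranged across alternatives from 0 to 224 in fibroblast-like (main 0), 0 to 135 in endothelial-like (9), 0 to 440 in mural (236), 0 to 69 in lymphatic endothelial-like (23), 0 to 46 in macrophage-like (2), 0 to 53 in glial-like (2) and 0 to 327 in mesothelial-like cells (0).

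With 1 library per genotype and age, a genotype difference at 1 age has no replicate. C5ar1 and C3ar1 were too sparse to test outside macrophage-like cells, and levels at 3 weeks in small classes lie near the floor of 3 UMIs.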

Other observations

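Fibroblast-like cells with Y-linked transcripts and with Xist had different C3 levels, furthest apart in the 8-week B.g7 library. In the 8-week K/B.g7 library C3 was 1267 CPM in cells with Y-linked UMIs and 1173 CPM in cells with Xist, against 3133 CPM and 294 CPM in the 8-week B.g7 library. The 90 Y-linked cells of that B.g7 library, 2.51% of its 3581 fibroblast-like cells, held 20.2% of its C3 UMIs, 12.2% of its C4b UMIs and 19.8% of its Cfb UMIs, and without them C3 was 310 CPM. Of the 12 cells of that library in the Mmp3 cluster, 9 had Y-linked UMIs and 0 had Xist alone, and 1 of the 90 cells shared a barcode with another library. At 25 weeks C3 was 277 CPM in Y-linked cells and 201 CPM in Xist cells of the K/B.g7 library, against 706 CPM and 226 CPM in B.g7, and at 3 weeks 78.2 CPM and 110.0 CPM in K/B.g7, against 88.6 CPM and 110.4 CPM in B.g7.

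An unnamed cluster led by haemoglobin genes held 47, 545 and 99 barcodes of the K/B.g7 libraries at 3, 8 and 25 weeks, against 28, 11 and 20 of the B.g7 libraries. C3 in it was 754 CPM (95% counting interval 716 to 794) and C4b 236 CPM, at a median of 1515 UMIs. It entered no comparison.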
